A study of Mus musculus with 34 samples.

Results

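The comparison described here is that of 3 whole mouse lungs with global overexpression of Lin28A against 3 control lungs, all collected at E16.5 (E stands for embryonic day). These 6 libraries were chosen by the stage and the group in their labels, out of 34 libraries of poly(A) RNA in the series, and every gene of the deposited count table was considered. The global libraries carry the tag Vasa in their titles, and the driver and the alleles behind that tag are not described in the labels. According to the protocol in the labels, pregnant mice drank water with doxycycline at 1 g/L from E0.5, with no difference stated between control and transgenic lungs. Nothing in the labels says that replicates come from separate animals or litters. The p-values rest on the spread within groups over all 34 libraries, which may be technical in part. The question, from the title of the series, is how Lin28 expression affects the lung as it develops. The other groups used below are control and global lungs at E12.5 (n = 3 and 3), E14.5 (n = 3 and 4) and E18.5 (n = 5 and 5), and E18.5 lungs with Lin28A in epithelium (n = 3, tag Nkx2.1) or in mesenchyme (n = 2, tag Wt1).

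Lin28A is an RNA-binding protein of early embryos that blocks the maturation of the let-7 family of microRNAs, whose levels rise as tissues differentiate. Mature let-7 pairs through its seed (bases 2 to 8) with the 3′ untranslated regions (UTRs) of transcripts and lowers them, and many of the known targets drive growth or mark early embryonic cells. E16.5 lies in the mouse lung between airway branching and the formation of the gas exchange surface: the distal tubules are starting to give rise to surfactant-producing alveolar type 2 cells and flat alveolar type 1 cells, ciliated and club cells appear in the airways, and the surrounding mesenchyme thins. Whole lungs were sequenced, so fewer cells of a type and less RNA of a gene per cell cannot be told apart in any result below.

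The mature let-7 sequences are shown because each member carries the same seed, so a match to that seed can be counted once for the whole family. They are from RefSeq (GRCm38.p6), written 5′ to 3′, with the seed in capitals.
let-7a: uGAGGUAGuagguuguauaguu
let-7b: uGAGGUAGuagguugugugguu
let-7c: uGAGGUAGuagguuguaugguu
let-7d: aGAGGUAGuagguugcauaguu
let-7e: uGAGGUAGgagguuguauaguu
let-7f: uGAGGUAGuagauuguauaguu
let-7g: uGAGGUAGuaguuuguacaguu
let-7i: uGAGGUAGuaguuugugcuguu
miR-98: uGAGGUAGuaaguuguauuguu
All 9 names shared the seed GAGGUAG. Poly(A) libraries do not measure mature microRNAs, so the level of let-7 itself was not analysed here.

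The first match to that seed in the 3′ UTR of 7 transcripts is shown next, because the values of these 7 genes open the results and they are among the best known transcripts with let-7 sites. Each stretch holds 15 bases before the 7-base match CTACCTC, which is in capitals, and 1 base after it, read 5′ to 3′ on the strand of the transcript (GENCODE M21, GRCm38).
Hmga2: gccgacattcaatttCTACCTCa
Lin28b: acccgggcgggaagtCTACCTCa
Trim71: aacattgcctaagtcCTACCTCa
Igf2bp1: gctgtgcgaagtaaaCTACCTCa
Igf2bp2: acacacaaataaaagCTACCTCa
Sall4: agggctttaatttatCTACCTCa
Igdcc3: tgtgactctcagcacCTACCTCa
The Hmga2 stretch lies at chr10:120364224-120364246 on the minus strand and the Lin28b stretch at chr10:45381022-45381044, also minus. That of Trim71 lies at chr9:114512472-114512494 (minus), that of Igf2bp1 at chr11:95961778-95961800 (minus) and that of Igf2bp2 at chr16:22059473-22059495 (minus). The Sall4 stretch lies at chr2:168748940-168748962 (minus) and the Igdcc3 stretch at chr9:65185707-65185729 (plus). In each of the 7 the match is followed by an A, the base opposite the first base of let-7. A match is a description of the letters and not a shown binding site.

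Lin28a (ENSMUSG00000050966, chromosome 4, 134003330 to 134018841) was measured first, since it checks the labels. It stood at 0.262, 0.27 and 0.809 CPM in control libraries 1 to 3 and at 385, 399 and 295 CPM in global libraries 1 to 3. CPM are counts scaled to the normalized library total, and all values in a row of 3 below follow this order. Every global library was far above every control (log2 fold 9.59 ± 0.64, adjusted p = 3.32e-11; the value after ± is the standard error of the log2 fold). Without control library 3, which held the highest control level, the log2 fold was 10.35. Transgene and endogenous transcripts were counted together. Ddx4, the gene also called Vasa, did not pass the test (adjusted p = 0.955), and neither did Wt1 (adjusted p = 0.526).

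At E16.5, 6785 of the 18319 genes tested passed an adjusted p of 0.05 in edgeR's quasi-likelihood test, which is 37% of them; such genes are called changed here. Of these, 3106 (17%) were higher and 3679 (20.1%) lower in global lungs, and the median log2 fold over all genes tested was -0.01. The 6 libraries held 11084917 to 12712848 counts each. The falls were larger than the rises: the median log2 fold of the genes called lower was -0.96 and that of the genes called higher 0.60. Among the calls of at least 2-fold there were 670 genes higher and 1760 lower (3.66% and 9.61% of the genes tested), and among those over 8-fold 59 higher and 322 lower (2.08% in all). The groups did not overlap for 10451 genes (57.1%), and 6681 of the called genes were among them. By type, 2956 of 15219 protein-coding genes were called higher and 3430 lower, against 103 and 224 of 2255 long noncoding genes. The count of calls ran from 5312 to 6234 when 1 of the 6 libraries was left out, and 4500 of the 6785 genes (66.3%) were called in the same direction in all 6 of those fits.

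**Figure D1:**
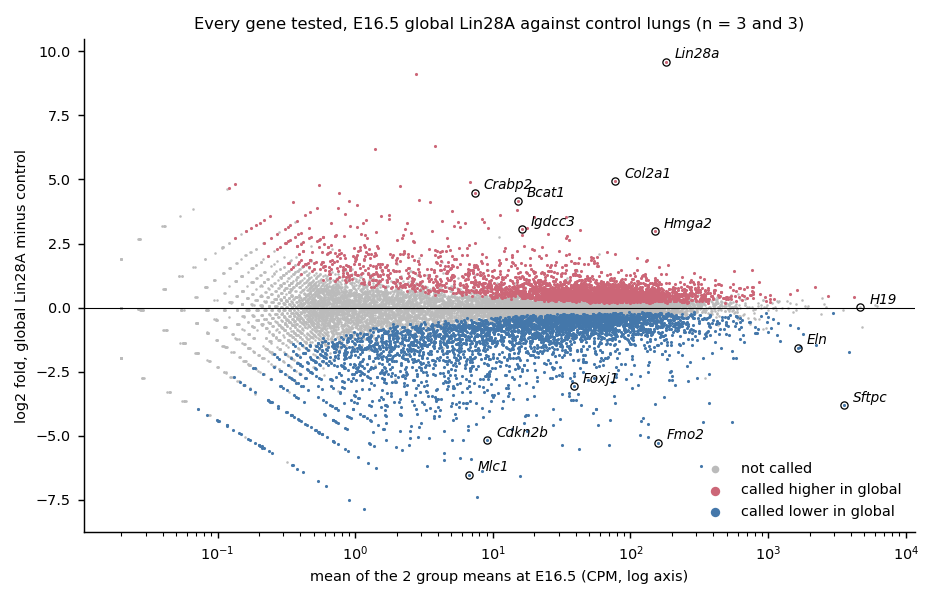
Log2 fold (global minus control, vertical) against the mean of both E16.5 group means in CPM (horizontal, log axis; means under 0.02 drawn at 0.02) for every gene tested, with called genes in colour and some genes named. The falls reach further than the rises across most of the range of levels, with 322 called genes over 8-fold lower and 59 over 8-fold higher.

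The libraries of a group were not alike in the genes that fell most. Among the 322 genes called over 8-fold lower, control library 2 held the highest control level in 247 (76.7%), against 38.3% of all genes tested. Among the 292 of them with a single highest global library, that library was number 3 in 202 (69.2%), against 34% of all genes tested. These 2 libraries also held the most counts on the ribosomal RNA gene CT010467.1 in their groups, at 1.26% and 0.685% of all counts against 0.186% to 0.348% in the other 4. Sex was not balanced either. The female transcript Xist was at 2.61 CPM in control library 2 against 1830 and 1820 CPM in the other controls, and the Y-linked gene Ddx3y at 69.3 against at most 0.0809 CPM. Among the global lungs, libraries 2 and 3 had the male pattern (Xist at 2.02 and 2.23 CPM) and library 1 the female one (2110 CPM). The part of these differences in the changes was not tested. Marker sums of tissues near the lung differed between libraries within each group. The cardiomyocyte markers summed to 187.8 to 301.6 CPM in the controls and 122.7 to 316.3 CPM in the global lungs, and the skeletal muscle markers to 16.7 to 40.19 CPM in the controls and 13.32 to 72.12 CPM in the global lungs. The thymus markers summed to 5.333 to 7.479 CPM in the controls and 9.424 to 10.06 CPM in the global lungs, and the kidney markers to 9.731 to 10.68 CPM in the controls and 10.09 to 13.86 CPM in the global lungs. Of 7 thymus and 8 skeletal muscle genes, none was called by edgeR or by DESeq2 and none had an unadjusted p under 0.05. In the cardiomyocyte list 1 of 18 genes was called lower, and in the hepatocyte list 1 of 11, beside 20.1% of all genes tested. Called higher were 3 of 16 nerve and glia genes (18.75%, beside 17% of all genes tested) and 1 of 8 kidney genes. These 2 counts of higher genes were 1 and 0 without control library 2 and global library 3. The thymus sum and the nerve and glia sum were each higher in every global library than in every control. The part of nearby tissue in the changes was not tested.

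Most listed let-7 targets were higher in the global lungs. Of 50 listed targets, 35 were called higher and 2 lower, with a median log2 fold of 0.78, beside 17% higher and 20.1% lower among all genes tested. Where a list below had no call in one direction, DESeq2 made none there either, and of all such lists together 2 members had an unadjusted p under 0.05 in that direction. Hmga2, a chromatin protein of growing embryonic tissue whose 3′ UTR holds 4 seed matches, was at 29.3, 32 and 39.9 CPM in the controls and at 279, 281 and 241 CPM in the global lungs. The lowest global library stood more than 6 times above the highest control (log2 fold 2.98 ± 0.19, adjusted p = 1.23e-11). Igdcc3, a membrane protein gene of the early embryo with 2 matches, was at 3.58, 3.87 and 2.99 CPM in the controls and at 32.4, 26.3 and 28.4 CPM in the global lungs. All 3 global libraries were far above the controls (log2 fold 3.06 ± 0.24, adjusted p = 4.96e-10). Sall4, a zinc finger factor of embryonic stem cells, was almost absent from the controls, with 3 counts summed over the group against 281 in the global lungs (ratio of depth-scaled counts 87.5, 95% interval 29.6 to 427; such intervals cover counting error only). Mycn, a growth-promoting transcription factor of distal lung epithelium, was at 28.2, 25.1 and 34.1 CPM and 130, 140 and 107 CPM, with no overlap (log2 fold 2.11 ± 0.21, adjusted p = 1.67e-08). It has no match in its annotated 3′ UTR.

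The proteins that bind and stabilise growth-related mRNAs were among the targets that rose. Igf2bp1 was at 58.9, 58.6 and 54.9 CPM in the controls and at 211, 206 and 191 CPM in the global lungs. The 3 global values lay close together and all were over 3 times the controls (log2 fold 1.82 ± 0.18, adjusted p = 8.4e-09). Igf2bp2 showed the same order, with 103, 80 and 85.2 CPM in the controls and 305, 294 and 255 CPM in the global lungs (log2 fold 1.67 ± 0.15). Lin28b, the paralog of Lin28a and itself a let-7 target with 4 matches, was at 0.787, 0.991 and 0.648 CPM in the controls and at 4.44, 2.73 and 3.13 CPM in the global lungs. Its level stayed low but did not overlap between the groups (log2 fold 2.08 ± 0.48, adjusted p = 0.00109). Trim71, a ubiquitin ligase and early let-7 target, rose by 1.37 on the log2 scale, with 9.09, 9.01 and 11 CPM and 26.6, 26.7 and 22.3 CPM. The cyclin D genes Ccnd1 and Ccnd2, which drive entry into the cell cycle, rose by 0.94 and 1.06 on the log2 scale. Tgfbr1, a receptor of transforming growth factor beta, rose by 0.95.

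Genes of the machinery that makes and tails microRNAs were next. Of 17 genes of microRNA processing, 10 were called higher and 1 lower (median log2 fold 0.47). Dicer1, which cuts the let-7 hairpin to its mature form, was at 116, 92 and 119 CPM in the controls and at 231, 220 and 197 CPM in the global lungs. Each global library was above each control (log2 fold 0.99 ± 0.11, adjusted p = 1.13e-07). Tut4, which adds the uridines that mark the precursor held by Lin28 for decay, rose by 0.74 on the log2 scale, and Xpo5, which exports precursors from the nucleus, by 0.76.

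Across the genome the number of seed matches went with the share of genes called higher, and most genes with a match were not changed. Of the 15141 tested genes with an annotated 3′ UTR, 10.3% held CTACCTC at least once on the transcript strand and 3.57% held the longer CTACCTCA, which contains it. Genes with 0, 1, 2 and 3 or more matches numbered 13586, 1363, 164 and 28. The share called higher was 18.8%, 24.7%, 29.3% and 46.4% in these classes, and the share called lower 22.7%, 22.7%, 15.9% and 10.7%. The median log2 fold went from -0.01 and 0.04 to 0.11 and 0.23. Long UTRs have more room for matches, and within the longest of 3 equal classes of UTRs the shares called higher were 20.6%, 24.2%, 29.0% and 48.1%. With the 8-base match the shares were 19.1%, 27.9%, 28.6% and 71.4%, the last of 7 genes. The gene with the most matches was Nr6a1, with 8, and it did not pass the test (log2 fold -0.02 ± 0.17, adjusted p = 0.955; Nr6a1 was picked for its number of matches).

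**Figure D2:**
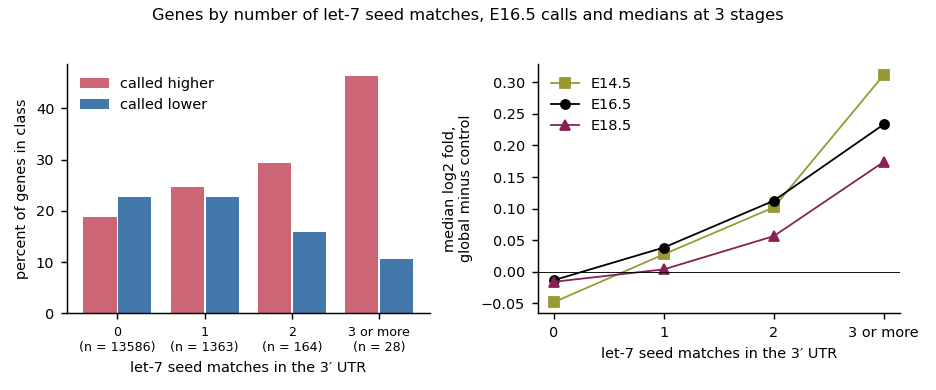
Left, percent of genes called higher (red) or lower (blue) in E16.5 global lungs by the number of let-7 seed matches in the 3′ UTR, with the number of genes in each class. Right, median log2 fold of the same classes at E14.5, E16.5 and E18.5; at E16.5 it goes from -0.01 with 0 matches to 0.23 with 3 or more.

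Genes of the maturing distal epithelium fell. All 7 tested genes of surfactant proteins and their processing were called lower, with a median log2 fold of -4.48, and their summed level was 7396 to 11380 CPM in the controls and 404.2 to 1051 CPM in the global lungs. Sftpc, the surfactant protein made only by distal lung epithelium, was at 6370, 8270 and 5400 CPM in the controls and at 270, 348 and 809 CPM in the global lungs. The groups were far apart, and global library 3 was the highest of its group (log2 fold -3.81 ± 0.78, adjusted p = 0.000294; -4.44 without that library). Sftpb, a surfactant protein needed for the first breath, was at 987, 1340 and 804 CPM and 28.8, 45.2 and 66.7 CPM. The order of the libraries was the same (log2 fold -4.48 ± 0.50, adjusted p = 7.48e-08). Sftpa1, a surfactant collectin that also binds microbes, was at 217, 371 and 189 CPM in the controls and at 6.05, 6.39 and 11.5 CPM in the global lungs (log2 fold -5.03 ± 0.58). Napsa, the protease that trims surfactant protein precursors, was at 220, 298 and 161 CPM in the controls and at 3.55, 5.22 and 13.3 CPM in the global lungs (log2 fold -4.95 ± 0.98, adjusted p = 0.0002; -5.68 without global library 3).

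The lipid side of surfactant changed less uniformly. Of 27 genes of surfactant lipid synthesis, transport and the lamellar body, the organelle that stores surfactant, 16 were called lower and 3 higher. Lamp3, a membrane protein of lamellar bodies, was at 214, 306 and 185 CPM in the controls and at 5.41, 9.35 and 21.3 CPM in the global lungs. It was lower in every global library (log2 fold -4.29 ± 0.63; -4.99 without global library 3). Lpcat1, which makes the main surfactant phospholipid, was at 622, 557 and 435 CPM and 136, 130 and 150 CPM (log2 fold -1.96 ± 0.22). Cds1, which makes a precursor of phosphatidylglycerol, fell by 2.72 on the log2 scale. In the wider list of alveolar type 2 identity, 18 of 20 genes were called lower and 0 higher (median -2.84). Etv5, a factor of distal tips and type 2 cells, was not called (log2 fold -0.36 ± 0.16, adjusted p = 0.0734).

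Type 1 cell genes fell as well. Of 25 genes of this flat cell, 22 were called lower and 2 higher (median -2.18), and each time 1 of the 6 libraries was left out the count lower was 22. The count higher was 0 without control library 1, and also without control library 2 and global library 3. Aqp5, a water channel of type 1 cells, was at 10.8, 17.8 and 5.5 CPM in the controls and at 0.0807, 0.234 and 0.247 CPM in the global lungs. The highest global library was over 20 times below the lowest control (log2 fold -5.85 ± 0.73, adjusted p = 3.55e-07). Sec14l3, a lipid-binding protein of lung epithelium, was at 137, 161 and 110 CPM and 0.807, 2.88 and 6.18 CPM (log2 fold -5.37 ± 0.68, adjusted p = 1.11e-06; -6.19 without global library 3). Clic5, a chloride channel family member linked to the cell cortex, was at 295, 274 and 205 CPM in the controls and at 7.99, 7.63 and 17.5 CPM in the global lungs. The groups did not overlap (log2 fold -4.55 ± 0.48). Emp2, a membrane protein of type 1 cells, fell by 2.76 on the log2 scale and Pdpn, their surface glycoprotein, by 1.73.

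Ion and water transport turns from secretion to absorption before birth. Of 15 genes of fluid transport, 10 were called lower and 1 higher (median -1.28). Scnn1a, a subunit of the epithelial sodium channel that absorbs lung liquid, was at 111, 125 and 81.6 CPM in the controls and at 5.25, 7.17 and 7.91 CPM in the global lungs. Every global library was over 10 times below every control (log2 fold -3.96 ± 0.35, adjusted p = 1.67e-09). Atp1b1, a subunit of the sodium pump, fell by 2.46 on the log2 scale, and Slc26a9, a chloride transporter, by 2.49. Cftr, the chloride channel of the secreting fetal lung, was not called (log2 fold -0.02 ± 0.19, adjusted p = 0.946).

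**Figure D3:**
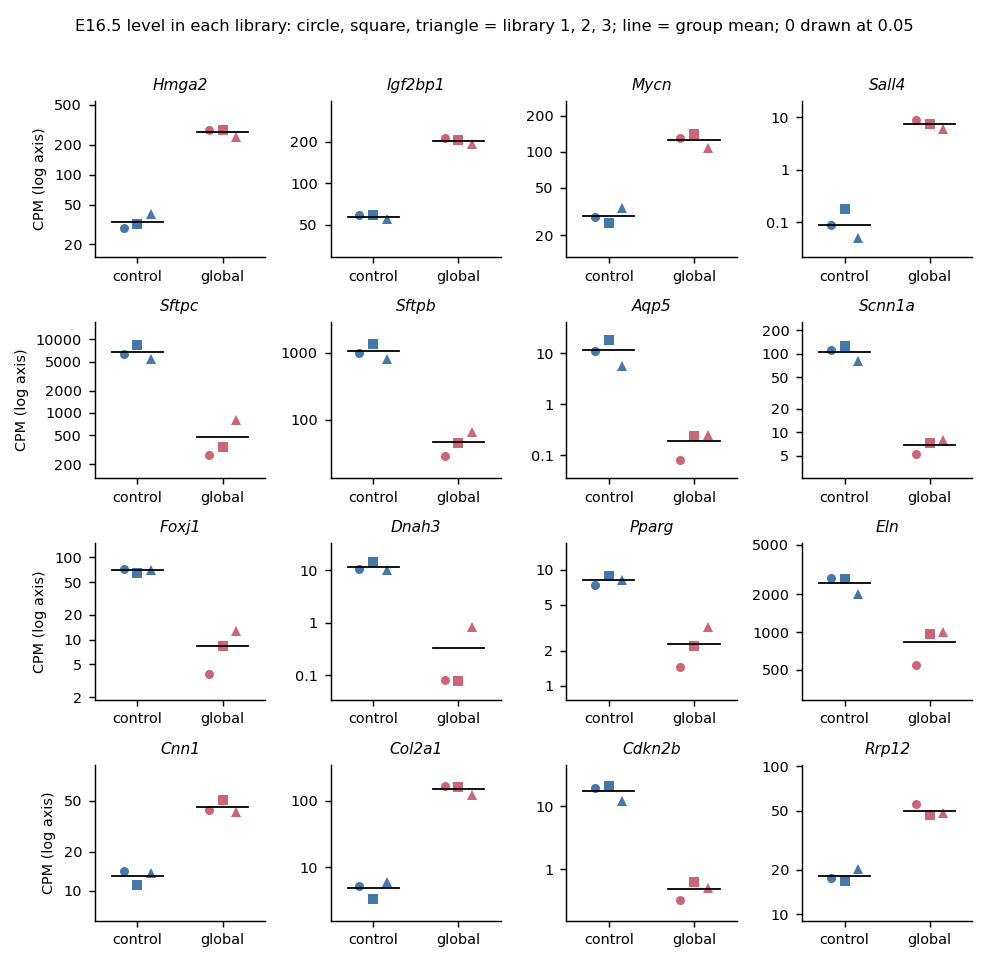
Level of 16 genes in each of the 6 E16.5 libraries (CPM, log axes that differ between genes; circle, square and triangle are libraries 1, 2 and 3; lines are group means). The 3 control and 3 global libraries do not overlap for any of the 16. Among the global lungs library 3 is the highest for Sftpc, Sftpb, Aqp5, Scnn1a, Foxj1, Dnah3, Pparg and Eln.

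Transcripts of differentiated airway cells were lower. Of 38 genes of the axoneme and cilium, 35 were called lower and 1 higher, with a median log2 fold of -3.24. Of 12 genes that commit a cell to many cilia, 9 were called lower and 1 higher, with 0 higher without control library 2 and global library 3. Foxj1, the factor that turns on motile cilia genes, was at 72.9, 65 and 69.6 CPM in the controls and at 3.79, 8.26 and 12.7 CPM in the global lungs. The lowest control was over 5 times the highest global library (log2 fold -3.07 ± 0.44, adjusted p = 2.67e-06). Dnah3, a dynein heavy chain of motile cilia, was at 10.8, 14.4 and 10 CPM in the controls and at 0.0807, 0.0779 and 0.824 CPM in the global lungs. Its residual level lay almost wholly in global library 3 (log2 fold -5.15 ± 0.76, adjusted p = 8.87e-06; -7.04 without it). Ccdc153, a cilium gene, had 226 counts over the controls and 3 over the global lungs (ratio 80.7, 95% interval 27.3 to 394). Sntn, a protein of the cilium tip, had 62 and 0 counts, which is at least 22.1-fold lower against a floor of 3 counts over the group.

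Other switch genes were among the calls. Foxn4, a factor of ciliated cell precursors, fell by 3.18 on the log2 scale, Cdc20b by 3.09 and Deup1, which builds the organelle that multiplies centrioles, by 3.01. Without global library 3 these log2 folds were -4.24, -4.49 and -3.89.

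Secretory cell genes were lower too, with exceptions. Of 18 club and secretory cell genes, 10 were called lower and 2 higher (median -1.53). Scgb3a2, a secretoglobin of early airway epithelium, was at 161, 268 and 176 CPM in the controls and at 13.9, 27.4 and 32.6 CPM in the global lungs (log2 fold -3.03 ± 0.50). Cbr2, a carbonyl reductase of club cells, was at 75.5, 153 and 76.2 CPM and 1.29, 6.54 and 9.89 CPM (log2 fold -4.10 ± 0.56, adjusted p = 1.66e-06). Cyp2f2, a P450 enzyme of club cells, was at 75.7, 91.1 and 60.3 CPM in the controls and at 0.888, 6.07 and 14.9 CPM in the global lungs. Its level differed more than 10-fold between global libraries 1 and 3 (log2 fold -3.38 ± 0.57; -4.43 without library 3). Gabrp, a receptor subunit of secretory epithelium, behaved in the same way (log2 fold -3.73; -7.59 without library 3).

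Neuroendocrine and basal markers did not move as groups. Of 13 neuroendocrine genes, 3 were called higher and 4 lower (23.08% and 30.77%, beside 17% and 20.1% of all genes tested). Calca, the gene of a peptide of mature neuroendocrine cells, was at 3.06, 3.06 and 2.35 CPM in the controls and at 0.323, 0.312 and 0.247 CPM in the global lungs. Each global library was below each control (log2 fold -3.22 ± 0.42). Uchl1, a ubiquitin hydrolase of neuroendocrine and nerve cells, rose by 1.45, and Pcsk1, a hormone-processing protease, fell by 1.98 on the log2 scale. Of 9 basal cell genes, 2 were called higher and 1 lower (22.22% and 11.11%), and the defining factor Trp63 was not called (adjusted p = 0.405).

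Genes of the distal tip progenitor were not uniformly higher. Of 20 such genes, 6 were called higher and 7 lower (median -0.29). Sox9, the factor that marks the tips, was not called (log2 fold 0.42 ± 0.28, adjusted p = 0.242), and Shh, a signal of distal epithelium, was not either (adjusted p = 0.263). Among epithelial transcription factors, 4 of 31 were called higher and 9 lower, with 2 higher without global library 2. Nkx2-1, the factor of lung identity, was at 707, 769 and 665 CPM in the controls and at 412, 444 and 445 CPM in the global lungs. Every global library was lower, but the gene stayed at over 50% of its control level (log2 fold -0.72 ± 0.16, adjusted p = 0.000593). Sox2, the factor of conducting airways, was at 9.79, 10.2 and 9.47 CPM and 29.1, 30.7 and 24.1 CPM. It was higher in all 3 global lungs (log2 fold 1.51 ± 0.41, adjusted p = 0.00432). Klf5, a factor of maturing lung epithelium, was at 109, 94.4 and 88.6 CPM in the controls and at 21.1, 25.2 and 28.8 CPM in the global lungs (log2 fold -1.96 ± 0.29), and Elf5 and Tfcp2l1 fell by 1.69 and 2.35 on the log2 scale.

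The general epithelial markers moved apart from one another. Epcam, an adhesion molecule of all lung epithelium, was at 192, 218 and 227 CPM in the controls and at 272, 315 and 279 CPM in the global lungs. It was higher in every global library (log2 fold 0.44 ± 0.13, adjusted p = 0.0075). Cdh1, the epithelial cadherin, was at 555, 480 and 489 CPM and 223, 243 and 261 CPM. It was lower in every global library (log2 fold -1.07 ± 0.16, adjusted p = 7.61e-06). Of 24 genes of junctions and keratins, 14 were called lower and 3 higher (median -0.87). Lama3, a chain of the epithelial laminin, fell by 2.28 on the log2 scale, Krt19 by 1.70, and both Cldn18, a tight junction protein of alveolar cells, and Itgb6 by 1.56.

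**Figure D4:**
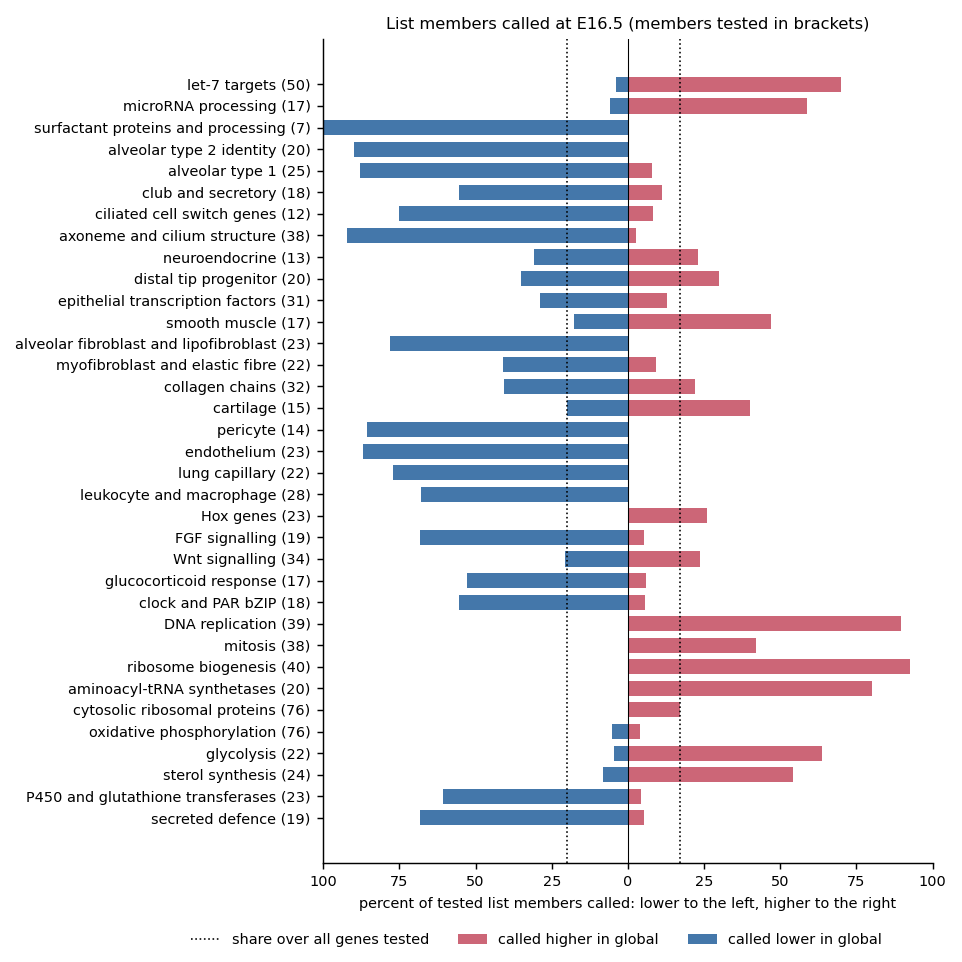
Percent of the tested members of 35 gene lists called higher (right) or lower (left) in E16.5 global lungs, with the number tested in brackets; dotted lines mark the shares over all genes tested, 17% higher and 20.1% lower. The lists of ribosome biogenesis and DNA replication reach furthest to the right, and those of surfactant proteins, the axoneme and alveolar cells furthest to the left.

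Mesenchymal genes split between muscle and fibroblast programs. Of 17 smooth muscle genes, 8 were called higher and 3 lower, and of 23 alveolar fibroblast and lipofibroblast genes 18 were called lower and 0 higher (median -0.84). Cnn1, a contractile regulator of smooth muscle, was at 14.1, 11 and 13.7 CPM in the controls and at 42.5, 50.5 and 41 CPM in the global lungs. All global libraries were well above the controls (log2 fold 1.79 ± 0.22, adjusted p = 3.47e-07). Acta2, smooth muscle actin, was at 503, 414 and 455 CPM and 686, 744 and 713 CPM, a smaller change with no overlap (log2 fold 0.64 ± 0.16, adjusted p = 0.00179). Myocd, the coactivator that turns on smooth muscle genes, rose by 1.61, and Actg2 by 1.41 on the log2 scale. Tcf21, a factor of lung fibroblasts, was at 349, 359 and 329 CPM in the controls and at 132, 136 and 135 CPM in the global lungs. The values within each group were close to each other (log2 fold -1.37 ± 0.11, adjusted p = 8.49e-10). Pparg, the factor of lipid-storing fibroblasts that type 2 cells also use, was at 7.34, 8.83 and 8.09 CPM and 1.45, 2.18 and 3.21 CPM (log2 fold -1.82 ± 0.33). Inmt, a methyltransferase of alveolar fibroblasts, had 91 counts over the controls and 3 over the global lungs (ratio 32.5, 95% interval 10.8 to 160).

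Matrix genes moved in both directions. Of 22 genes of myofibroblasts and elastic fibres, 9 were called lower and 2 higher. Eln, which encodes tropoelastin, was at 2710, 2650 and 2030 CPM in the controls and at 547, 966 and 993 CPM in the global lungs. Each global library was below 50% of each control (log2 fold -1.56 ± 0.36, adjusted p = 0.0011). Mfap4, a microfibril protein, was at 2470, 2790 and 2280 CPM and 739, 1030 and 847 CPM (log2 fold -1.53 ± 0.17). Ltbp2 and Fbln5, which help to assemble elastic fibres, fell by 1.69 and 1.23 on the log2 scale. Among collagen chains 7 of 32 were called higher and 13 lower: the basement membrane chains Col4a3 and Col4a4 fell by 2.67 and 2.32, Col1a1, the main chain of fibrillar collagen, was not called (adjusted p = 0.475), and Col11a1 rose by 1.93. Col2a1, the main collagen of cartilage, was at 5.25, 3.33 and 6.07 CPM in the controls and at 165, 163 and 121 CPM in the global lungs. The rise was in all 3 global libraries (log2 fold 4.93 ± 1.04, adjusted p = 0.000397). Of 15 cartilage genes, 6 were called higher and 3 lower, beside 17% and 20.1% of all genes tested. Without control library 2 and global library 3 these counts were 4 and 2. The aggrecan gene Acan, which defines cartilage matrix, was below 1 CPM in all 6 libraries. It had 5 counts over the controls and 22 over the global lungs and was not called (adjusted p = 0.332). Msln, a surface protein of mesothelium, fell from 104, 131 and 80.4 CPM to 2.02, 6.23 and 12.4 CPM (log2 fold -3.93 ± 0.45; -4.66 without global library 3), and 4 of 13 mesothelial genes were called lower.

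Endothelial, pericyte and leukocyte genes were lower. Of 23 endothelial genes, 20 were called lower and 0 higher (median -0.67), of 22 lung capillary genes 17 lower (median -1.05), and of 14 pericyte genes 12 lower (median -1.06). Pecam1, an adhesion molecule of all endothelium, was at 510, 511 and 422 CPM in the controls and at 233, 257 and 277 CPM in the global lungs. No library overlapped (log2 fold -0.91 ± 0.12, adjusted p = 1.56e-06). Gpihbp1, which holds lipoprotein lipase on capillaries, was at 28.5, 35.1 and 20.4 CPM and 3.63, 6.7 and 7.5 CPM (log2 fold -2.23 ± 0.30). Sox17, an arterial factor, fell by 1.37 on the log2 scale. Of 7 lymphatic genes 2 were called higher and 2 lower, and 1 in each direction without control library 2 and global library 3: Mmrn1 rose by 1.68 and Prox1, the factor that makes an endothelial cell lymphatic, by 1.17, though the Prox1 call was then lost (adjusted p = 0.0605). Of 28 leukocyte genes, 19 were called lower and 0 higher. Lyz2, a lysozyme of macrophages and later of type 2 cells, was at 105, 121 and 88.6 CPM in the controls and at 20.7, 26.2 and 32.8 CPM in the global lungs (log2 fold -1.98 ± 0.32). Ptprc, which all leukocytes carry, was not called (log2 fold -1.02 ± 0.44, adjusted p = 0.0698). Most erythroid genes were not called, but their summed level was lower. Of 15 tested, 3 were called lower and 1 higher (median 0.01), the latter count being 0 without control library 2 and global library 3. The erythroid markers summed to 6656 to 14730 CPM in the controls and 3547 to 4381 CPM in the global lungs. Hbb-bs, an adult beta globin, was at 6650, 3450 and 7750 CPM and 1610, 1820 and 1980 CPM (log2 fold -1.72 ± 0.48), while the embryonic globin gene Hbb-bh1 was not called (adjusted p = 0.643). Counts of globin genes and of the pair Lyz1 and Lyz2 are uncertain where reads fit both copies.

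Genes of early patterning were higher in part. Of 23 Hox genes tested, 6 were called higher (26.09%, beside 17% of all genes tested) and 0 lower. The 6 were Hoxb3 to Hoxb8, neighbours on chromosome 11 that mark the position of the lung along the body. Hoxb5, which is needed for normal airway branching, was at 52.2, 37 and 49 CPM in the controls and at 105, 91.4 and 91.7 CPM in the global lungs. Every global library was above every control (log2 fold 1.06 ± 0.19). Hoxb6 and Hoxb8 rose by 1.18 and 1.29. Reads from antisense transcripts of the cluster cannot be separated from these counts, since the strand setting of the counting is not given. Crabp2, which carries retinoic acid to its nuclear receptor, was at 0.787, 0.451 and 0.648 CPM in the controls and at 16.9, 13.8 and 11.8 CPM in the global lungs. It was below 1 CPM in every control and above 10 CPM in every global library (log2 fold 4.47 ± 0.41, adjusted p = 2.77e-09). Stra6, a membrane receptor that takes up retinol, was at 0.525, 0.451 and 1.21 CPM and 10.7, 7.17 and 5.69 CPM (log2 fold 3.39 ± 0.45, adjusted p = 9.65e-07; 3.98 without control library 3), while Dhrs3, an enzyme that lowers retinaldehyde, fell by 1.81 on the log2 scale.

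Genes at or near 0 in control lungs included several of neurons. Cntn2, an adhesion molecule of axons, had no count in the controls and 205 in the global lungs, which is at least 63.8-fold higher against a floor of 3 counts over the group. Epha8, an ephrin receptor, was at 0.35, 0.631 and 0.324 CPM in the controls and at 18.6, 10.6 and 10.3 CPM in the global lungs (log2 fold 4.90 ± 0.50). Ctnna2 and Sept3, a neuronal catenin and a neuronal septin, rose by 3.75 and 3.79. As a group, neuronal adhesion and receptor genes were not higher, with 7 of 30 called higher and 5 lower (median 0.00). These shares, 23.33% and 16.67%, stood beside 17% and 20.1% of all genes tested. The count lower was 3 without control library 2 and global library 3. The nerve and glia markers summed to 25.35 to 31 CPM in the controls and 33.98 to 36.02 CPM in the global lungs, and their part in these rises was not tested.

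Among signals, most FGF genes fell. Fibroblast growth factors pass between mesenchyme, mesothelium and epithelium and drive branching. Of 19 FGF pathway genes, 13 were called lower and 1 higher (median -0.61), with 0 higher without control library 2 and global library 3. Fgf10, the mesenchymal signal for bud outgrowth, was at 57.6, 48.2 and 57.7 CPM in the controls and at 34.9, 34.3 and 29.8 CPM in the global lungs. The groups did not overlap (log2 fold -0.72 ± 0.18, adjusted p = 0.0025). Fgf9, made by mesothelium and epithelium, was at 9.01, 10.1 and 11 CPM and 3.39, 3.12 and 3.3 CPM (log2 fold -1.62 ± 0.37, adjusted p = 0.000862). Fgf7, a mesenchymal growth factor for epithelium, was at 18.4, 20.3 and 21.4 CPM in the controls and at 6.46, 7.87 and 8.08 CPM in the global lungs (log2 fold -1.42 ± 0.25). Spry4, a feedback inhibitor that FGF signalling turns on, fell by 1.50 on the log2 scale.

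Of 34 Wnt genes, 8 were called higher and 7 lower (23.53% and 20.59%), not far from the 17% and 20.1% of all genes tested. Rspo2, a mesenchymal enhancer of Wnt signalling, was at 5.07, 4.78 and 5.67 CPM in the controls and at 22.4, 18 and 18.4 CPM in the global lungs. All 3 global libraries were over 3 times the highest control (log2 fold 1.92 ± 0.39). Lgr5, a receptor for R-spondins, rose by 1.62, and Sfrp1, a secreted Wnt inhibitor, by 1.60. Wnt3a, a ligand, had 84 counts over the controls and 1 over the global lungs (ratio 90, 95% interval 15.7 to 3590). Axin2, a target gene of the pathway, was not called (log2 fold 0.02 ± 0.16, adjusted p = 0.949). In the hedgehog pathway 4 of 13 genes were called higher (30.77%) and 1 lower (7.69%), with Gli3 up by 0.88 and the ligand-binding inhibitor Hhip lower (log2 fold -0.71). Of 28 TGF-beta and BMP genes, 5 were called higher (17.86%) and 10 lower (35.71%), beside 17% and 20.1% of all genes tested. The count lower was 6 without control library 1. Both counts were lower without control library 2 and global library 3, at 3 and 6.

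Glucocorticoids from the fetal adrenal mature the lung before birth, and genes of their local supply moved in opposite directions. Hsd11b1, the enzyme that makes the active hormone in lung mesenchyme, was at 78, 83 and 50.5 CPM in the controls and at 2.58, 7.32 and 7.42 CPM in the global lungs. It was lower by over 5-fold in every pair of libraries (log2 fold -3.61 ± 0.42, adjusted p = 1.44e-07). Hsd11b2, the enzyme that inactivates the hormone, was at 1.75, 2.61 and 2.02 CPM and 11.5, 11.9 and 8.82 CPM. It was higher in every global library (log2 fold 2.34 ± 0.30, adjusted p = 6.05e-07). Nr3c1, the receptor, was at 193, 181 and 190 CPM in the controls and at 103, 110 and 106 CPM in the global lungs (log2 fold -0.82 ± 0.10, adjusted p = 2.37e-07). Of 17 genes of the glucocorticoid response, 9 were called lower and 1 higher (median -0.84), with 6 lower without control library 2. Zbtb16, a target of the receptor, fell by 2.64 on the log2 scale. Of 18 clock and related genes, 10 were called lower and 1 higher. Among those lower was the clock component Per1, which fell by 1.55 on the log2 scale.

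Genes of ribosome production and DNA replication rose. Of 40 genes of ribosome biogenesis, 37 were called higher and 0 lower, with a median log2 fold of 0.81, and the count was at least 35 under every alternative tried. Rrp12, an export and processing factor of pre-ribosomes, was at 17.6, 16.8 and 20.3 CPM in the controls and at 55.1, 46.7 and 48.5 CPM in the global lungs. All global values were over 2 times the controls (log2 fold 1.46 ± 0.17, adjusted p = 2.1e-07). Gnl3, a nucleolar GTPase, rose by 1.28, and Dkc1, the pseudouridine synthase of ribosomal RNA, by 1.11. The structural proteins of the ribosome moved far less: 13 of 76 cytosolic ribosomal protein genes were called higher and 0 lower (median 0.10), a share near the 17% of all genes. Of 20 aminoacyl-tRNA synthetase genes, which load amino acids for translation, 16 were called higher and 0 lower.

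Of 39 DNA replication genes, 35 were called higher and 0 lower (median 0.64), with 18 higher without control library 2 and global library 3. Mcm2, a subunit of the replicative helicase, was at 160, 134 and 195 CPM in the controls and at 289, 289 and 263 CPM in the global lungs. No library overlapped (log2 fold 0.79 ± 0.21, adjusted p = 0.00416). Orc1 and Cdc6, which load that helicase, rose by 1.09 and 1.08. The count of mitosis genes called higher depended on the fit. It was 16 of 38, with 1 without both control library 2 and global library 3 and up to 32 under other settings. The log2 folds of all 38 lay above 0, from 0.095 to 0.72 (median 0.46). Mki67, a marker of all cycling cells, was not called (log2 fold 0.33 ± 0.21, adjusted p = 0.215). Cdkn2b, a cell cycle inhibitor that TGF-beta turns on, was at 19.7, 21.4 and 12.3 CPM in the controls and at 0.323, 0.623 and 0.495 CPM in the global lungs. Every global library was below 1 CPM (log2 fold -5.18 ± 0.43, adjusted p = 7.48e-10). Cdkn1a, another inhibitor and a p53 target, had a log2 fold of -0.90, and its call was lost without any of 4 single libraries. The imprinted growth factor Igf2 was at 142, 84.2 and 157 CPM and 261, 263 and 229 CPM; control library 2 was the lowest, and without it the call was lost (log2 fold 0.97 ± 0.29; 0.75 and adjusted p = 0.073 without it). Igfbp6 and Igfbp7, secreted proteins that bind insulin-like growth factors, fell by 3.55 and 2.27 on the log2 scale. H19, the noncoding neighbour of Igf2, did not pass the test (log2 fold 0.01 ± 0.21, adjusted p = 0.98).

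Metabolic genes followed several directions. Of 22 glycolysis genes, 14 were called higher and 1 lower (median 0.59), with 9 higher without control library 2 and global library 3. Pkm, pyruvate kinase, was at 574, 559 and 585 CPM in the controls and at 1060, 1190 and 1200 CPM in the global lungs (log2 fold 1.01 ± 0.12), and Slc16a3, which exports lactate, rose by 1.82. Bcat1, which takes part in the breakdown of branched-chain amino acids, was at 1.31, 1.26 and 2.19 CPM in the controls and at 33.5, 28.2 and 25 CPM in the global lungs. The lowest global library was over 10 times the highest control (log2 fold 4.17 ± 0.55, adjusted p = 9.56e-07). Phgdh, the first enzyme of serine synthesis, rose by 1.20. Of 24 sterol synthesis genes, 13 were called higher and 2 lower. Few genes of oxidative phosphorylation were called, with 3 of 76 genes called higher and 4 lower (median -0.02), and 0 lower without control library 2. Of 23 genes of P450 enzymes and glutathione transferases, 14 were called lower and 1 higher. Fmo2, the main flavin monooxygenase of lung, was at 286, 373 and 268 CPM and 5.73, 8.18 and 9.89 CPM. All global libraries were over 20 times below the controls (log2 fold -5.28 ± 0.47, adjusted p = 1.67e-09). Of 19 secreted defence genes, a list chosen, like every list here, with earlier results of these data known, 13 were called lower and 1 higher. Retnla, a secreted protein of airway epithelium and macrophages, had 530 counts over the controls and 3 over the global lungs (ratio 189, 95% interval 64.4 to 920).

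Set beside the controls of earlier and later stages, the E16.5 global lungs held some of these genes at a level the controls had 2 days earlier. These levels are given as values, with no test between stages. Mcm10, a replication factor, had a control mean of 79.6 ± 2.59 CPM (SD, n = 3) at E14.5 and 42 ± 5.35 CPM (n = 3) at E16.5, and the E16.5 global mean was 83.8 ± 6.95 CPM (n = 3). Dkc1 had 116 ± 14.6 CPM, 57.7 ± 5.27 CPM and 124 ± 9.58 CPM in the same groups. For Cnn1 the values were 43.5 ± 4.12 CPM, 12.9 ± 1.68 CPM and 44.7 ± 5.14 CPM. In these 3 genes the control level fell between the stages and the global lungs at E16.5 stood near the younger controls. Of the genes that rise in the controls, Scnn1a and Cdkn2b showed the mirror image. Scnn1a had 8.4 ± 1.23 CPM in E14.5 controls, 106 ± 22.1 CPM in E16.5 controls and 6.77 ± 1.38 CPM in E16.5 global lungs. Cdkn2b had 0.757 ± 0.118 CPM, 17.8 ± 4.81 CPM and 0.48 ± 0.151 CPM. Aqp5 ended below the younger controls, with 1.31 ± 0.293 CPM, 11.4 ± 6.19 CPM and 0.187 ± 0.0925 CPM in the same groups. Cdh1 ended above them, with 210 ± 14.2 CPM, 508 ± 40.8 CPM and 242 ± 19.1 CPM. How many rising genes stood near, below or above the younger level was not counted. Among genes that fall in the controls, some rose past the younger level. Hmga2 had 67.6 ± 11.7 CPM in E14.5 controls and 267 ± 22.6 CPM in E16.5 global lungs, and Kif12, a kinesin gene, 19.7 ± 3.62 CPM and 36.6 ± 3.04 CPM.

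**Figure D5:**
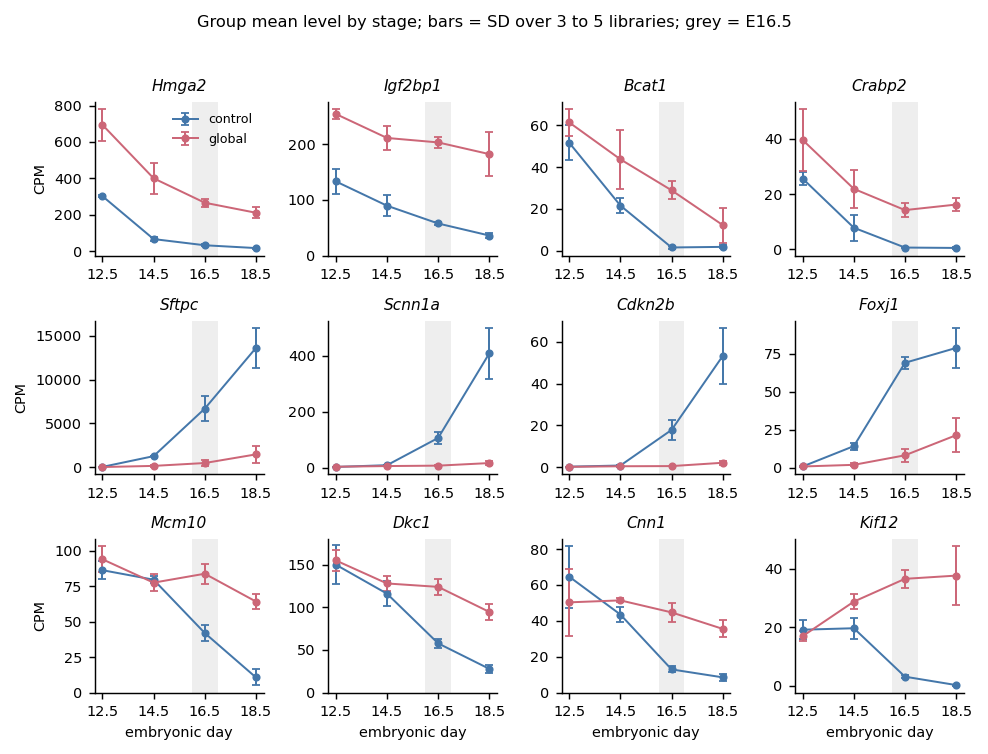
Mean level of 12 genes in control (blue) and global (red) lungs at E12.5, E14.5, E16.5 and E18.5 (CPM on linear axes from 0; bars are SD over 3 to 5 libraries; grey marks E16.5). At E16.5 the global mean of Mcm10, Dkc1 and Cnn1 is near the E14.5 control mean, Sftpc, Scnn1a, Cdkn2b and Foxj1 have not risen as in the controls, and Hmga2 and Igf2bp1 are above the E14.5 controls.

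Fewer genes were called at E14.5, where 12.9% of those tested passed, and more at E18.5, where 64.8% did (32.1% higher and 32.7% lower). The E16.5 comparison shares no library with either. Of the genes called higher at E16.5, 522 were called higher at E14.5, which is 16.8% of the E16.5 list and 64.1% of the E14.5 list. Of those called lower, 1120 were called lower at E14.5, or 30.4% and 72.4%. With E18.5 the shared genes numbered 2868 higher (92.3% of the E16.5 list, 48.8% of the E18.5 list) and 3337 lower (90.7% and 55.7%), and 25 and 18 were called in the opposite direction. Across genes, which are not independent replicates, Pearson's r of the log2 folds was 0.46 with E14.5 and 0.75 with E18.5. At E18.5, Lin28A in mesenchyme shared 86.4% of the E16.5 rises and 81.4% of the falls, where 54.3% of all genes were called (27.4% higher and 26.9% lower). Lin28A in epithelium shared 30.8% and 23%, where 33.2% were called (18% higher and 15.2% lower), with 253 and 520 genes called in the opposite direction. These E18.5 groups share their controls with one another but not with E16.5, and the difference between them was not tested here.

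A gene called at E16.5 and not at E14.5 has not thereby changed more at E16.5, so the difference of the effects was tested itself. It was called for 1443 genes (7.88% of those tested), 734 with a larger value at E16.5 (4.01%) and 709 with a smaller one (3.87%). That count depended on the fit: it was 545 without control library 2 and global library 3 of E16.5, 792 with a replicate block and 3085 in a fit of only the 4 groups compared. Of the 5131 genes called at E16.5 and not at E14.5, 1139 had a called difference. For DNA replication, 0 of 39 genes were called higher at E14.5 and the difference was called higher for 13; for ribosome biogenesis it was called higher for 25 of 40. Bcat1 had an E14.5 control mean of 21.6 ± 3.52 CPM and a global mean of 43.7 ± 14.1 CPM, and the difference of its log2 effects, E16.5 minus E14.5, was 3.15 ± 0.68, adjusted p = 0.00487. For Crabp2 the difference was 2.98 ± 0.50, adjusted p = 0.00101, and for Cdkn2b -4.33 ± 0.78, adjusted p = 0.00142. Kif12 was at 2.62, 2.97 and 3.8 CPM in the E16.5 controls and at 39.1, 37.4 and 33.2 CPM in the global lungs, against E14.5 means of 19.7 and 28.8 CPM. Its effect was larger at E16.5 than at E14.5 (2.99 ± 0.35, adjusted p = 4.59e-05) and larger again at E18.5 (3.48 ± 0.48, adjusted p = 5.23e-05).

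From E16.5 to E18.5 the difference of the effects was called for 1957 genes (10.7%), 1290 higher at E18.5 (7.04%) and 667 lower (3.64%), and for 1054 without control library 2 and global library 3 of E16.5. The DNA replication list went further in the same direction, with a difference called higher for 37 of 39. Ciliated switch genes went the other way: 7 of 12 had a called difference towards higher values at E18.5, and at E18.5 itself 3 were called higher and 2 lower. Foxj1 had a mean of 8.25 ± 4.45 CPM in global lungs at E16.5 (n = 3) and 21.5 ± 11 CPM at E18.5 (n = 5), against control means of 69.2 and 79 CPM. The difference of its effects was 1.21 ± 0.52, adjusted p = 0.135.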

How the data were processed

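Whole-lung poly(A) RNA libraries were compared as labelled: 3 global and 3 control lungs at E16.5. The authors deposited raw counts per Ensembl gene, per the labels. STAR 2.4.2a, HTSeq 0.6.1p1, cutadapt, bcl2fastq 2.17.1.14 and DESeq2 1.10.1 are named with the build GRCm38, per the submitters' processing notes; roles, annotation release and strandedness are not given in the sources used here. The table holds 21789 genes, none of which has fewer than 6 counts in its highest library. Names and 3′ UTRs (the longest per protein-coding gene) came from GENCODE M21.

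All 34 libraries (7147301 to 17624884 counts) entered 1 fit of 10 group means in edgeR 4.0.16 (R 4.3.3, limma 3.58.1): filterByExpr on the groups kept 18319 genes, with TMM scaling, 24 residual degrees of freedom and a common biological coefficient of variation of 0.172. P-values were adjusted by the Benjamini-Hochberg method over all genes and called under 0.05. Ratios with 0 to 3 counts in a group use summed counts with exact 95% intervals.

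The 60 gene lists and all comparisons were chosen with earlier results of these data known. Genes were named by a rule: list anchors, the 12 largest rises and 12 largest falls with at least 5 CPM and no overlap, up to 4 called members per list, and 6 genes per direction of each difference of effects. Nr6a1, Hoxb3, Xist and Ddx3y stand outside it and were chosen after their values were seen. Control library 2 and global library 3 were left out together as an alternative chosen after seeing the data, as were control library 3 and global library 4 of E14.5. Replicate numbers did not pair the E16.5 libraries (correlations of deviations 0.289, -0.030 and -0.233), and no 2 libraries of a group agreed within counting noise. The fitting and seed-scanning code was tested on simulated data.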

Additional observations from a re-analysis of the deposited data

Results flagged for a closer look

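The effect of Lin28A differed between stages, by a test of the difference itself, for 1443 genes between E14.5 and E16.5 and for 1957 genes between E16.5 and E18.5. Among genes with a mean of at least 5 CPM in 1 of the groups, those with the largest differences between E14.5 and E16.5 (log2 effect at E16.5 minus that at E14.5) included genes that were lower at E16.5 relative to E14.5: Aqp5 with -5.13, Cdkn2b with -4.33, Dlk2 with -4.57 and Gipr with -4.42. Those that were higher were Bcat1 with 3.15, Cntn2 with 7.29, Crabp2 with 2.98, Gm32585 with 3.71 and Kif12 with 2.99. The log2 effect of Cntn2 rests on control lungs with no count and is no bound.

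For 3 further genes the difference rested on single E14.5 libraries. Napsa had -6.26, but in the E14.5 global group library 4 stood at 98.5 CPM, far from the 2.22, 2.29 and 2.79 CPM of the others. Fxyd2 had -4.98, and the same library held 61.1 CPM against 1.93, 2.44 and 4.73. Prss16 had 6.27, with E14.5 control library 3 at 156 CPM beside 2.84 and 1.98 CPM in the other controls. Without E14.5 control library 3 and global library 4 the differences were -2.89 (adjusted p = 0.0781), -2.73 (0.174) and 1.82 (0.159), so none of the 3 calls held.

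Between E16.5 and E18.5 (effect at E18.5 minus that at E16.5), with the same minimum of 5 CPM, the lowest values were those of Adcy8 with -4.41, Atf3 with -6.22, Fos with -6.29, Marco with -4.64, Pon1 with -6.03 and Rasgrf2 with -4.53. The highest were those of Ccl11 with 3.0, Crh with 3.65, Gm14094 with 8.31, Gm8420 with 9.03, Ibsp with 4.22 and Kif12 with 3.48. Fos stood at 1220 and 1690 CPM in E18.5 control libraries 1 and 2 and at 16 to 30.1 CPM in the other 3, and Atf3 at 210 and 421 against 4.54 to 5.46 CPM. Without E16.5 control library 2 and global library 3 the calls of Atf3, Fos and Marco were lost (adjusted p = 0.0716, 0.0716 and 0.114). Their differences were then -5.94, -6.20 and -3.90. No fit without both E18.5 control libraries 1 and 2 was run. Gm8420 was at 16.9 to 22.0 CPM in 3 of 5 E18.5 global libraries and under 0.1 CPM in the other 2, and Gm14094 showed the same 3 against 2. The single count of Gm14094 in E18.5 control library 3 (0.0795 CPM) stood out only because the other 4 controls had none. Kif12 was at 27.0 to 54.1 CPM in all 5 global and at most 0.53 CPM in all 5 control libraries at E18.5. The rule that marked single libraries of Napsa, Fxyd2 and Gm14094 has a nominal rate of about 1 in 20 groups marked by chance. These genes were picked for their large differences, so that rate does not apply to them.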

How the results depend on the processing

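The E16.5 count of 6785 genes was 6806 with DESeq2's size factors in edgeR, 6891 with DESeq2's own test, 6641 with no filter and 6185 with a filter of 5 CPM in 3 libraries. It was 8262 in a fit of the 6 libraries alone and 4729 without control library 2 and global library 3, where 2055 genes were called higher. Leaving out 1 library gave 5312 to 6234.

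Of the 3 counts over all genes, that of the difference of effects between E14.5 and E16.5 moved by the largest factor. Against 1443 genes (734 higher, 709 lower), the fit of the 4 groups compared gave 3085 (1701 and 1384). Leaving out 1 library gave 746 to 1487 (360 to 775 higher and 386 to 712 lower), with the lowest count without E16.5 control library 2. Without E16.5 control library 2 and global library 3 it was 545 (240 and 305), and without E14.5 control library 3 and global library 4 it was 933 (462 and 471). Against 1957 genes (1290 higher, 667 lower) between E16.5 and E18.5, leaving out 1 library gave 990 to 2621 (656 to 1742 and 334 to 879), leaving out the 2 E16.5 libraries 1054 (744 and 310), and DESeq2 called 1025 lower. The cause of these moves was not tested.

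A replicate block, for which the shared numbers give no ground at E16.5, gave 6458 genes at E16.5, 1625 for E16.5 to E18.5 and 792 (401 higher, 391 lower) for E14.5 to E16.5. With the 8-base match in place of the 7-base match, the share called higher among genes with 1 match went from 24.7% to 27.9% and among those with 3 or more from 46.4% to 71.4%.

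Genes named as changed kept their direction under every alternative in which they were tested. Of the genes named as not called, 5 changed sign: over single libraries left out, the log2 fold of Axin2 ran from -0.0666 to 0.1085, of Cftr from -0.1128 to 0.0695, of Ddx4 from -0.6988 to 0.3131, of H19 from -0.0651 to 0.1381 and of Prss16 from -0.1265 to 0.2895. Without both control library 2 and global library 3 they were -0.0739, 0.0155, 0.6022, -0.1330 and -0.0051. Depth limits genes below about 1 CPM. Where a group had no count, the bound on the fold used a floor of 3 counts over the group, a level far below 1 CPM.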
